A study of Mus musculus with 6 samples.

Results

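The genes described here are 8 genes of retinoid metabolism, chosen by gene symbol from the 15280 genes of an RNA-Seq table of mouse mammary tumors and glands. They are the retinaldehyde dehydrogenases *Aldh1a1*, *Aldh1a2* and *Aldh1a3* with the related *Aldh1a7*, the retinol transporter gene *Stra6*, the retinoic acid binder gene *Crabp2*, the dehydrogenase gene *Dhrs9* and the retinoic acid hydroxylase gene *Cyp26b1*. All 8 symbols were found in the table. The libraries came from 3 parous female BK5.ATF3 transgenic mice, in which ATF3 is overexpressed in basal epithelial cells. Each mouse had raised a litter and gave 1 mammary tumor, taken once it was 1.5 cm long, and the adjacent normal gland. Tumors in this strain arose at 6 to 12 months of age. Both groups therefore carry the transgene, no wild-type gland was analysed here, and the libraries M11035, M11640 and M9232 of normal glands pair with T11035, T11640 and T9232 of tumors by mouse number. The depth of a library was 4750989 to 7806908 fragments on genes. Expression is given in CPM, the fragments of a gene scaled by the effective library size of edgeR, for which 3 fragments, taken as the floor of detection, stood for 0.393 to 0.610 CPM. Floors and counting intervals cover counting error only and leave out variation between mice. Copies made by PCR are not independent molecules, so even the counting error may be understated.

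Retinoids derive from vitamin A, which circulates as retinol on a binding protein and enters many cells through the membrane receptor that *Stra6* encodes. Inside the cell, dehydrogenases oxidize retinol to retinaldehyde, the ALDH1A enzymes oxidize retinaldehyde to retinoic acid, and CYP26 enzymes hydroxylate retinoic acid and so clear it. Retinoic acid activates nuclear receptors, and in stratified epithelia it is known to hold back keratinization, while ALDH1 activity has been used to enrich progenitor cells of the mammary gland.

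To ask how these genes differ between the tissues, the 3 tumors were compared with the 3 normal glands by the two-sided test of limma on log2(CPM + 0.5), and p-values were adjusted over all 15280 genes by the Benjamini-Hochberg method. Genes with an adjusted p up to 0.05 that changed at least 2-fold were called. Changes are given as log2FC, the log2 fold change of tumor over gland on log2(CPM + 0.5), and folds are taken from it except where a floor is named. All 8 genes were called, against 28.2% of all genes tested. The genes were chosen with earlier results of these data known, so this share is a description. *Stra6*, *Crabp2*, *Dhrs9*, *Cyp26b1*, *Aldh1a2* and *Aldh1a3* rose in the tumors, where 14.5% of all genes were called higher, and *Aldh1a1* and *Aldh1a7* fell, where 13.7% were called lower. For each of the 8 genes the levels of the 3 tumors and the 3 glands did not overlap, which held for 54.0% of all genes. Over the 8 genes the median log2FC was 1.86, and over all genes it was -0.0028. An exact permutation test of 3 libraries against 3 cannot go below p = 0.1 for a single gene (two-sided), and limma instead shares its estimate of the spread across genes. In these bulk tissues, fewer cells of a type and less RNA per cell cannot be told apart.

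**Figure D1:**
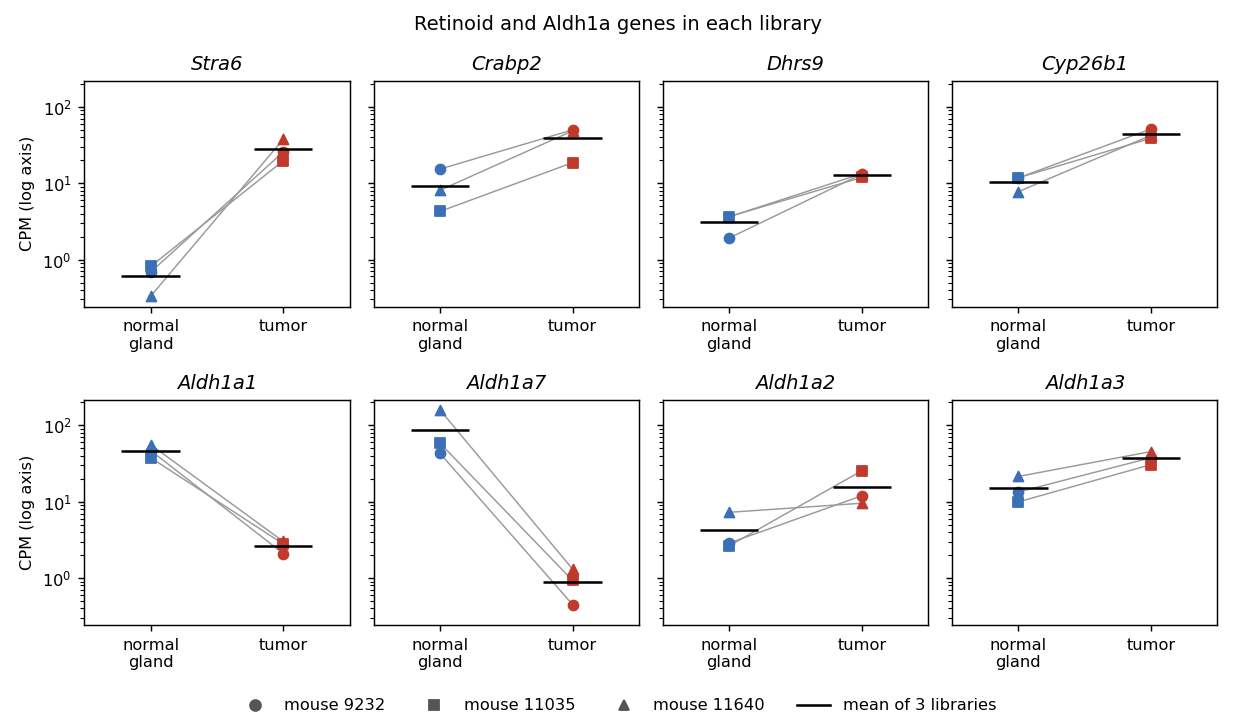
CPM of the 8 genes in each of the 6 libraries on a log axis, with glands in blue, tumors in red, a marker shape and a gray line for each mouse, and a black bar for the mean of 3 libraries. *Aldh1a1* and *Aldh1a7* lie lower in all 3 tumors and the other 6 genes lie higher, with the smallest difference within a mouse in *Aldh1a2* between M11640 and T11640 (7.27 and 9.57 CPM).

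*Aldh1a1* encodes the retinaldehyde dehydrogenase best known as a marker of stem and progenitor cells. It had 37.8, 56.0 and 46.9 CPM in glands M11035, M11640 and M9232, and 2.79, 3.01 and 2.10 CPM in the tumors of the same mice. The glands were all high and the tumors all low, and the groups were far from overlapping. Its log2FC was -3.91 (standard error 0.23, 95% interval -4.44 to -3.39, adjusted p = 7.23e-06, limma). *Aldh1a7* is a rodent gene that arose by duplication of *Aldh1a1* and whose product has little activity on retinaldehyde. Its levels were 58.8, 160 and 43.2 CPM in the glands and 0.930, 1.31 and 0.450 CPM in the tumors, which rest on 5, 10 and 3 fragments. Gland M11640 stood above the other glands, and all 3 tumors were close to the floor. *Aldh1a7* showed the largest change of the 8 genes, with a log2FC of -5.79 (standard error 0.47, 95% interval -6.86 to -4.72, adjusted p = 3.55e-05, limma). So few tumor fragments make its size depend on the pseudocount and the model, with -4.73 at a pseudocount of 2 and -6.57 and -6.60 in edgeR and DESeq2 on fragments. Both genes lie on chromosome 19 of mm9, *Aldh1a1* at 20676451 to 20717952 on the plus strand and *Aldh1a7* at 20767443 to 20802052 on the minus strand.

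The other retinaldehyde dehydrogenases moved the opposite way. *Aldh1a2*, which supplies retinoic acid in the embryo, had 2.64, 7.27 and 2.87 CPM in glands M11035, M11640 and M9232 and 25.5, 9.57 and 12.0 CPM in tumors T11035, T11640 and T9232. Tumor T11035 was the highest library and gland M11640 the highest gland, so that the groups were separated by a narrow gap. The log2 difference within a mouse was 3.05, 0.37 and 1.89, the widest spread among the 8 genes. Its log2FC was 1.77 (standard error 0.45, 95% interval 0.75 to 2.79, adjusted p = 0.0132, limma). *Aldh1a3*, an epithelial and ocular retinaldehyde dehydrogenase, had 9.96, 21.5 and 13.4 CPM in the glands and 30.7, 45.5 and 37.8 CPM in the tumors. The mouse with the highest gland also had the highest tumor, and every tumor exceeded every gland. *Aldh1a3* rose 2.58-fold, a log2FC of 1.37 (standard error 0.29, 95% interval 0.72 to 2.02, adjusted p = 0.00535, limma). *Aldh1a2* lies on chromosome 9 (71063596 to 71144050) and *Aldh1a3* on chromosome 7 (73535778 to 73572403).

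Divided by transcript length, the 4 genes can be set beside each other as CPM per kb. In the normal glands *Aldh1a7* had 42.3 ± 30.8 CPM per kb (SD, n = 3) and *Aldh1a1* had 22.8 ± 4.43, ranges that overlapped, while *Aldh1a3* had 4.34 ± 1.72 and *Aldh1a2* had 1.88 ± 1.15. In the tumors *Aldh1a1* and *Aldh1a7* stood last, with 11.04 ± 2.15 CPM per kb for *Aldh1a3*, 6.93 ± 3.79 for *Aldh1a2*, 1.28 ± 0.233 for *Aldh1a1* and 0.434 ± 0.209 for *Aldh1a7*, and the ranges of *Aldh1a3* and *Aldh1a2* overlapped. *Aldh1a1* and *Aldh1a7* together made up 92.0%, 91.7% and 89.4% of the summed CPM per kb of the 4 genes in glands M11035, M11640 and M9232. The same pair made up 8.23%, 10.8% and 7.08% in the tumors. *Aldh1a3* alone made up 40.6%, 67.6% and 62.7% of the sum in the tumors, and *Aldh1a2* made up 51.2%, 21.6% and 30.2%. Tumor T11035 was thus the library in which *Aldh1a2* exceeded *Aldh1a3* per kb. The summed level was 50.9, 114 and 48.9 CPM per kb in the glands and 22.0, 19.5 and 17.5 CPM per kb in the tumors. The tumors thus held less Aldh1a transcript in all, and less of it came from *Aldh1a1* and *Aldh1a7*. *Aldh1a7*, whose product has little activity on retinaldehyde, alone made up 55.8%, 67.9% and 42.8% of the sum in the glands. The fall of the sum therefore does not give the size of any fall in *Aldh1a1*, *Aldh1a2* and *Aldh1a3* together. These sums and shares are descriptions and were not tested.

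**Figure D2:**
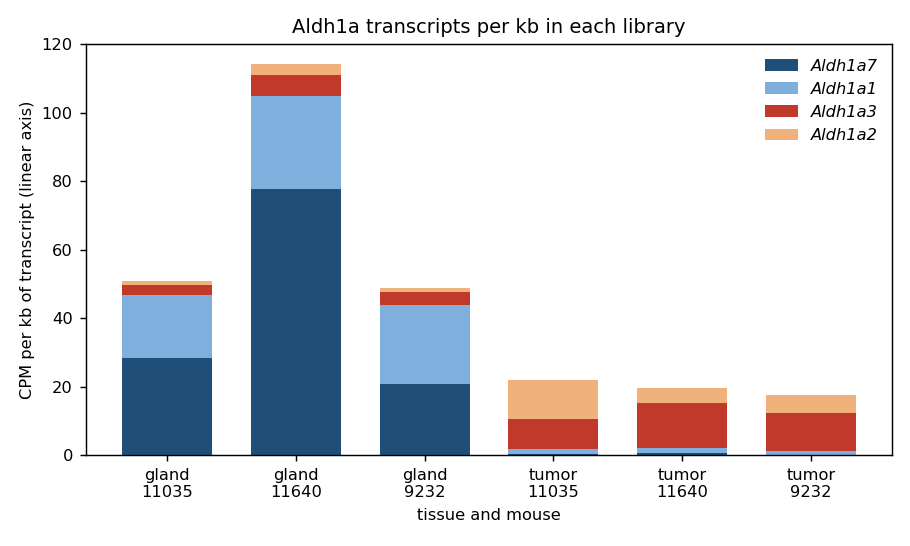
CPM per kb of transcript of *Aldh1a7*, *Aldh1a1*, *Aldh1a3* and *Aldh1a2*, stacked for each library on a linear axis from 0. The sum runs from 48.9 to 114 in the glands, mostly *Aldh1a7* and *Aldh1a1*, and from 17.5 to 22.0 in the tumors, mostly *Aldh1a3* and *Aldh1a2*.

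The 4 genes are related in sequence, so their reads have to be told apart. Over aligned coding bases, *Aldh1a1* and *Aldh1a7* were 91.7% identical, while the other pairs were 69.1% to 70.2% identical. The stretch below, 84 coding bases that hold the codon of the catalytic cysteine, shows how far apart the transcripts are. Capitals mark bases that differ from *Aldh1a1*, 16 in *Aldh1a7*, 28 in *Aldh1a2* and 26 in *Aldh1a3*.
Aldh1a1: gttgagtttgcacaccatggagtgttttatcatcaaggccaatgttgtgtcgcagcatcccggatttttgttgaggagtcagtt
Aldh1a7: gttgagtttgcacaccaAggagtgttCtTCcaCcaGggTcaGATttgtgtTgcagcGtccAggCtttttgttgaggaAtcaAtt
Aldh1a2: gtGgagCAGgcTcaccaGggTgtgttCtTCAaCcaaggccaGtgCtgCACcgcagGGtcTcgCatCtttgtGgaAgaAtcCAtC
Aldh1a3: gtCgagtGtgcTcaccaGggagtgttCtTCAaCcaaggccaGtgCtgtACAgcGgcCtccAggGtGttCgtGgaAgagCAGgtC
These are bases 862 to 945 of the coding sequence in *Aldh1a1* and *Aldh1a7*, 913 to 996 in *Aldh1a2* and 895 to 978 in *Aldh1a3* (mm9, GENCODE transcripts). The longest run shared by the coding sequences of *Aldh1a1* and *Aldh1a7* was 100 bases, and 47 of 1978 windows of 76 bases, the read length, in the *Aldh1a1* transcript also occurred in *Aldh1a7*. Fragments from those windows are uncertain between this pair. Both genes fell in all 3 mice, and the ratio of *Aldh1a7* to *Aldh1a1* in CPM was 1.55, 2.86 and 0.921 in the glands and 0.333, 0.435 and 0.214 in the tumors.

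Among genes of retinol uptake, the transcript of the cell surface receptor rose and that of the carrier fell. Uptake itself and the proteins were not measured here. *Stra6*, on chromosome 9 (57911595 to 58001803), had 0.813, 0.330 and 0.684 CPM in glands M11035, M11640 and M9232, from 4, 2 and 5 fragments, and 19.7, 37.7 and 25.8 CPM in the tumors. The glands were near the floor and every tumor was far above it. Its log2FC was 4.65 (standard error 0.32, 95% interval 3.93 to 5.37, adjusted p = 1.51e-05, limma), the largest rise of the 8 genes. As with *Aldh1a7*, the size depends on how low values are treated, with 3.47 at a pseudocount of 2, 5.31 at 0.1, and 5.48 and 5.53 in edgeR and DESeq2 on fragments. Of the uptake and transport genes listed, 5 were in the table, of which 2 were called higher and 3 lower (14.5% and 13.7% over all genes). *Rbp4*, which encodes the plasma carrier of retinol, had 75.2, 97.6 and 38.3 CPM in the glands and 1.30, 2.23 and 1.65 CPM in the tumors. It fell in every mouse, with a log2FC of -4.91 (standard error 0.35, adjusted p = 1.80e-05, limma). *Cd36*, a scavenger receptor and the most abundant gene of this list per kb in both tissues, had a log2FC of -4.50, from 2228 ± 839 CPM (SD, n = 3) to 97.6 ± 31.4 CPM. *Lrp1* rose by a log2FC of 1.15 and *Scarb1* had one of -1.06, and both lost their calls in some settings, with values down to 0.94 for *Lrp1* without gland M11035 and -0.96 for *Scarb1* at a pseudocount of 2 or without tumor T11640. *Scarb1* was also not called without gland M9232 (-0.99), and *Lrp1* without tumor T9232 (0.99).

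Genes for proteins that bind retinoids inside the cell mostly rose. *Crabp2*, on chromosome 3 (87752588 to 87757298), carries retinoic acid to its nuclear receptors. Its levels were 4.27, 8.09 and 15.3 CPM in the glands and 18.6, 48.5 and 50.05 CPM in the tumors. M11035 and T11035 were the lowest of their tissues, and T11035 lay just above the highest gland. The log2FC was 2.06 (standard error 0.49, 95% interval 0.94 to 3.19, adjusted p = 0.0101, limma), and the log2 difference within a mouse lay between 1.68 and 2.51. Without tumor T11640 *Crabp2* was not called (log2FC 1.84, adjusted p = 0.0507, limma), and over all alternatives its adjusted p ran from 1.14e-04 (DESeq2) to 0.0507. All 6 genes of the binding list were called, 5 higher and 1 lower (14.5% and 13.7% over all genes), with a median log2FC of 2.07, or 2.05 with *Rbp2* set to its lower bound. *Crabp1*, the other cellular retinoic acid binder, rose from 0.960 ± 0.439 CPM (SD, n = 3) to 23.3 ± 17.0 CPM, a log2FC of 3.84 (adjusted p = 3.95e-04, limma). Its glands had 5, 3 and 10 fragments, and the log2FC ran from 2.90 at a pseudocount of 2 to 4.60 in DESeq2, and was 3.29 without T9232, the highest tumor at 42.6 CPM. *Fabp5*, a fatty acid binder that can also deliver retinoic acid, was the most abundant gene of the list per kb and rose from 153 ± 36.1 to 643 ± 80.2 CPM per kb (SD, n = 3). *Rbp2*, the intestinal retinol binder, was at 0 in all 3 glands, and its tumor mean exceeded the floor at least 4.08-fold. *Rbp7*, a retinol binder of fat and endothelium, was the gene of the list that fell, with a log2FC of -3.23 (adjusted p = 4.43e-05, limma).

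Genes that form or hydrolyze retinyl esters, the storage form of vitamin A, were lower or not called. Of 4 such genes in the table, *Lpl*, *Lipe* and *Dgat1* were called lower, as were 13.7% of all genes, with log2FCs of -4.82, -3.23 and -2.25, and the median was -2.74. All 3 also act on triglycerides in fat. *Lpl* was the most abundant of them per kb in both tissues, with 918 ± 351 CPM per kb (SD, n = 3) in the glands and 32.6 ± 13.7 in the tumors. *Lrat*, the dedicated retinol acyltransferase, had 1.02, 1.65 and 2.74 CPM in the glands and 1.12, 1.05 and 0.300 CPM in the tumors and was not called (log2FC -0.80, 95% interval -1.79 to 0.19, adjusted p = 0.175, limma). Exons of *Lipe* overlap *4732471J01Rik* in the GENCODE annotation of mm9, so its fragment count is uncertain.

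Dehydrogenases that oxidize retinol were listed in 1 role with those that reduce retinaldehyde, and the genes of this list split. The counts do not separate these directions of the reaction. *Dhrs9*, on chromosome 2 (69218502 to 69242590), encodes a short-chain dehydrogenase of epithelia. It had 3.66, 3.63 and 1.92 CPM in the glands and 11.9, 13.4 and 13.2 CPM in the tumors. The tumors were nearly alike, and the groups were well apart. Its log2FC was 1.94 (standard error 0.27, 95% interval 1.32 to 2.57, adjusted p = 7.06e-04, limma). Of 15 genes of this role in the table, 8 were called higher and 3 lower (14.5% and 13.7% over all genes) and 4 were not called, with a median log2FC of 1.37. *Sdr16c6*, *Rdh9*, *Sdr16c5* and *Rdh1* had the largest values. *Sdr16c6* and *Sdr16c5*, neighbors on chromosome 4 that encode epidermal retinol dehydrogenases, were at 0 in every gland. *Sdr16c6* had 8.75, 30.4 and 26.7 CPM in the tumors, at least 43.4-fold more than the floor of the glands, and *Sdr16c5* had 5.02, 5.50 and 3.45 CPM, at least 9.22-fold more. *Rdh9* rose from 3.56 ± 0.825 CPM (SD, n = 3) to 53.6 ± 20.8 CPM and *Rdh1* from 2.48 ± 0.159 to 28.7 ± 7.98 CPM, but these neighbors on chromosome 10 overlap in their exons and share 22.9% and 11.2% of their 76-base windows, so the split between them is uncertain. *Dhrs4* was the most abundant gene of this role per kb in the glands (44.6 ± 9.88 CPM per kb) and fell by 1.99 on the log2 scale (adjusted p = 3.21e-04, limma). *Dhrs3*, which reduces retinaldehyde back to retinol, had 50.4, 67.1 and 58.0 CPM in the glands and 16.9, 25.3 and 27.7 CPM in the tumors, a log2FC of -1.33 (adjusted p = 0.00161, limma). *Rdh10*, the main retinol dehydrogenase of the embryo, and *Adh1*, a cytosolic alcohol dehydrogenase, were chosen after their values were seen. *Rdh10* rose 3.48-fold (adjusted p = 2.24e-04, limma), and *Adh1* had a log2FC of -3.14 (adjusted p = 4.29e-05, limma).

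Clearance of retinoic acid was represented by CYP26 genes, both of which rose. *Cyp26b1*, on chromosome 6 (84521938 to 84543740), had 11.8, 7.76 and 11.8 CPM in glands M11035, M11640 and M9232 and 38.9, 42.5 and 51.5 CPM in the tumors. The tumors were all high, with a gap to the glands wider than the spread in either tissue. It rose 4.14-fold, a log2FC of 2.05 (standard error 0.22, 95% interval 1.55 to 2.55, adjusted p = 1.55e-04, limma). *Cyp26a1*, a paralog that retinoic acid induces in many cells, was at 0 in all 3 glands and had 1.67, 2.36 and 1.50 CPM in the tumors, from 9, 18 and 10 fragments. Against the floor this is at least 3.65-fold higher. *Cyp26a1* was called in this test (adjusted p = 0.00150, limma) and was not called at a pseudocount of 2, where its log2FC was 0.94 (adjusted p = 0.00300, limma, with a range of 2.27e-04 to 0.00800 over all alternatives).

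Of 7 nuclear receptor genes, 1 was called higher, 1 lower and 5 were not called, where 28.2% of all genes were called in either direction, with a median log2FC of -0.28. *Rxra*, the most abundant of them per kb, had 34.4, 37.8 and 40.4 CPM in the glands and 22.5, 29.9 and 39.9 CPM in the tumors. Its groups overlapped, and the log2FC was -0.32 (95% interval -0.82 to 0.19, adjusted p = 0.281, limma). *Rara* and *Rarb* had log2FCs of -0.26 (95% interval -0.81 to 0.28) and -0.28 (-0.86 to 0.31). *Rarg*, the main retinoic acid receptor of epidermis, passed the adjusted p but not the fold threshold (log2FC 0.90, adjusted p = 0.0210, limma), and was called higher without gland M11035 (1.09) or without tumor T11640 (1.04). *Rxrg* had 3.05, 2.81 and 2.74 CPM in the glands against 0, 0 and 3 fragments in the tumors. Fragments pooled over each tissue and scaled for depth gave a ratio of gland over tumor of 18.7, with a 95% counting interval of 6.04 to 93.4. The log2FC of *Rxrg* was -2.44 (adjusted p = 0.00120, limma). Its size depends on how low values are treated, with -1.18 at a pseudocount of 2 and -4.23 in DESeq2. *Ppard*, a receptor that ligands delivered by FABP5 activate, rose by a log2FC of 1.05 (adjusted p = 0.0105, limma) and lost its call at a pseudocount of 2 (0.87), without gland M11640 (0.94) and without tumor T9232 (0.90).

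A list of genes known to be induced by retinoic acid was set beside the pathway. Of its 12 genes in the table, 5 were called higher, 1 lower and 6 were not called, with a median log2FC of 0.35. The members *Stra6*, *Crabp2* and *Cyp26b1* are 3 of the 5. With these left out, 2 of 9 were called higher, *Cyp26a1* among them, and 1 lower (*Dhrs3*), and the median log2FC was -0.28. For all genes of the table the shares were 14.5% and 13.7%. The receptor gene *Rarb*, which belongs to the list, had levels that overlapped between the tissues (5.29, 4.79 and 3.83 CPM in the glands, 3.72, 4.32 and 3.15 CPM in the tumors).

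Across all pathway roles, with the 8 genes left out, 35 listed genes were in the table. Of these, 14 were called higher, 11 lower and 10 were not called, so that 25 of 35 were called against 28.2% of all genes. Their median log2FC was -0.26. These genes too were listed with earlier results of these data known, so the share called is a description. With the 8 genes counted in, 5 of the 7 roles represented in the table had calls in both directions. Ester metabolism had calls in the lower direction alone, and CYP26 clearance in the higher direction alone.

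**Figure D3:**
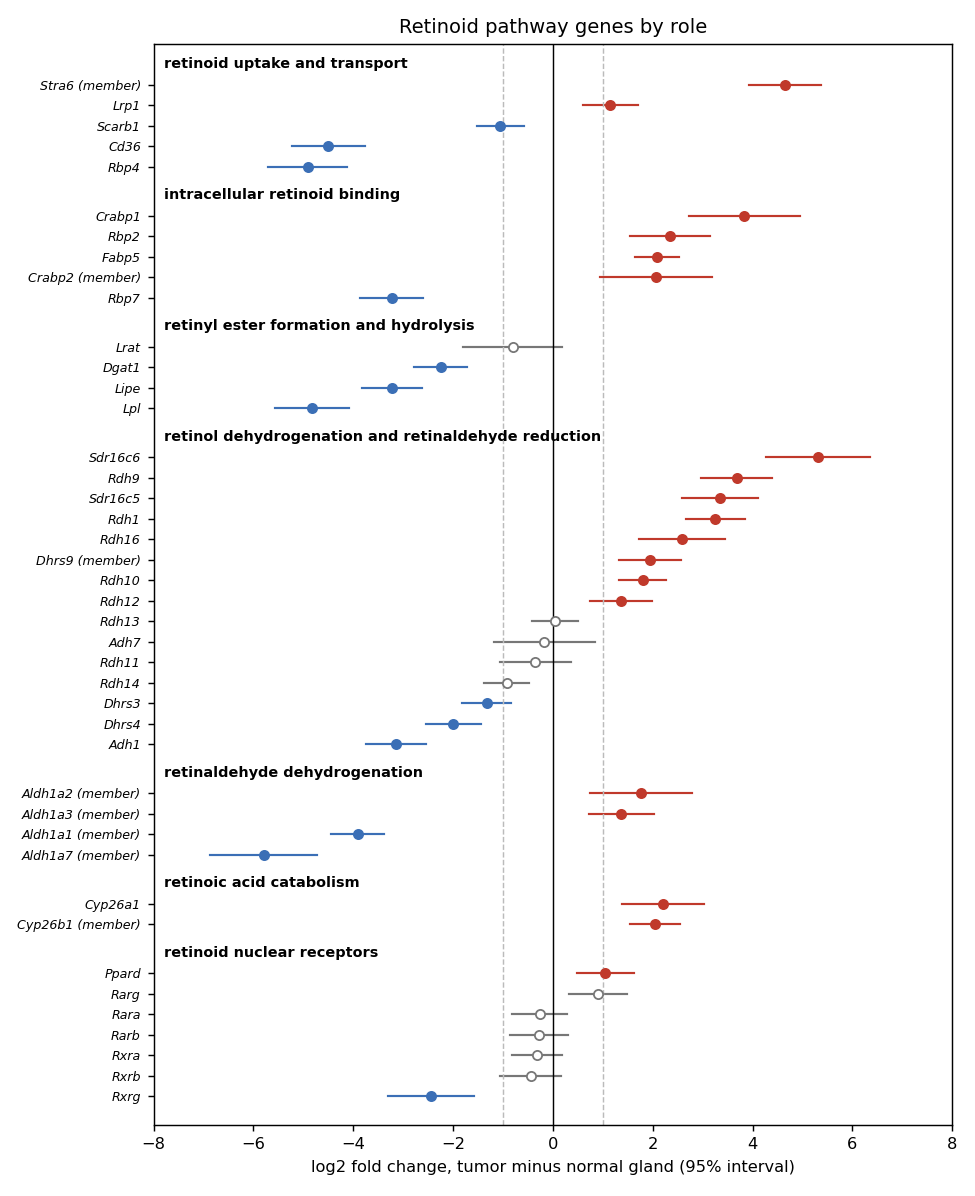
Log2FC (tumor minus normal gland, limma on log2(CPM + 0.5)) with 95% interval for 42 of the 43 pathway genes in the table, by role, in red where called higher, blue where called lower and open gray where not called. Dashed lines mark a log2FC of 1 in either direction, and the values of genes at 0 in all glands (*Rbp2*, *Rdh16*, *Sdr16c5*, *Sdr16c6*, *Cyp26a1*) depend on the pseudocount.

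The promoters of genes that moved together were examined for shared letters. RefSeq promoters, each 250 bases before to 50 bases after a start (GRCm38.p6), were given for 6 of the 8 genes, with 10 promoters in all (*Aldh1a1*, *Aldh1a2*, *Aldh1a7*, *Cyp26b1*, *Dhrs9* and *Stra6*). *Aldh1a1* and *Aldh1a7*, the members that fell, have nearly the same bases before their starts. The last 90 bases before the RefSeq start differ at 3 places, which capitals mark.
Aldh1a1: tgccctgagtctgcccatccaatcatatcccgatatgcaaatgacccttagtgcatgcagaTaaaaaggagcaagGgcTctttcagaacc
Aldh1a7: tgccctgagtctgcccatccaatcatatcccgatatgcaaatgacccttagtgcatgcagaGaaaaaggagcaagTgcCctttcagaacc
Matched to mm9, the *Aldh1a1* stretch is chr19:20676368-20676457 on the plus strand and the *Aldh1a7* stretch is chr19:20802047-20802136 on the minus strand. They hold the start of the annotated transcript at their right end.

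ATF3 belongs to the bZIP proteins, which bind AP-1 sites and cyclic AMP response elements, so these letters were searched on both strands. The AP-1 letters TGACTCA occurred in promoters of *Dhrs9*, which rose, and *Aldh1a1*, which fell, and in 5.20% of all 32851 promoters in the reference. In all, 6 of the 35 pathway and target genes with promoters, this pair among them, held these letters, against 5.95% of the 27025 genes in the reference. The letters TGACGTCA occurred in 0 of the 10 promoters of the 6 genes searched and in 1.79% of all promoters. Capitals mark the AP-1 letters.
Dhrs9: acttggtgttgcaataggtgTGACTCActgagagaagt
Aldh1a1: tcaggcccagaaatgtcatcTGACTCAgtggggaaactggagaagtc
The *Dhrs9* stretch is chr2:69218481-69218518 (mm9, plus strand), where the letters meet the first bases of the annotated gene. The *Aldh1a1* stretch is chr19:20566996-20567042 (mm9, plus strand) and belongs to the more distant of its 2 RefSeq starts.

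Retinoic acid receptors bind repeats of the core AGGTCA, which occurred in the promoter of 1 of the 6 genes searched, *Dhrs9*, in 10 of the 35 pathway and target genes with promoters, and in 18.1% of all genes in the reference (16.3% of all promoters). The retinoic acid response direct repeat with a spacing of 5 bases, with the usual variants of its core allowed, occurred in 0 of the 10 promoters of the 6 genes searched and in 0.0974% of all promoters. Among the other pathway and target genes, it was found before *Cyp26a1* and *Rarb*. *Cyp26a1* was at 0 in the glands and present in the tumors, and *Rarb* was not called. Capitals mark the repeat.
Cyp26a1: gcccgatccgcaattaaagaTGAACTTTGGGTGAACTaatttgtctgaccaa
Rarb: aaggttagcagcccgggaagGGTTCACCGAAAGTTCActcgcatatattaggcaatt
The *Cyp26a1* stretch is chr19:37772246-37772297 (mm9, plus strand), where the repeat reads on the opposite strand, and the *Rarb* stretch is chr14:17408007-17408063 (mm9, minus strand). A match is a description of letters, and binding was not measured here.

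Ranked by CPM per kb in the normal glands, the 8 genes ran from *Aldh1a7* and *Aldh1a1* through *Crabp2* (9.91 ± 6.03, SD, n = 3), *Aldh1a3*, *Cyp26b1* (2.32 ± 0.516), *Aldh1a2* and *Dhrs9* (0.717 ± 0.234) to *Stra6* (0.198 ± 0.0812). The ranges of neighbors in this order overlapped for *Aldh1a7* and *Aldh1a1*, for *Crabp2* and *Aldh1a3*, and for *Cyp26b1* and *Aldh1a2*. In the tumors *Crabp2* came first (41.9 ± 19.0 CPM per kb), with no overlap with the next gene. *Aldh1a3*, *Cyp26b1* (9.86 ± 1.45), *Stra6* (9.02 ± 2.98) and *Aldh1a2* followed with overlapping ranges. *Dhrs9* (2.99 ± 0.186), *Aldh1a1* and *Aldh1a7* came last, each apart from the next. The genes that led the order in the glands were thus at its end in the tumors. Within the mice of T11035, T11640 and T9232, the log2 difference between tumor and gland was -3.54, -4.01 and -4.19 for *Aldh1a1* and -5.37, -6.47 and -5.53 for *Aldh1a7*. It was 1.58, 1.07 and 1.46 for *Aldh1a3*, 1.58, 1.75 and 2.50 for *Dhrs9*, 1.68, 2.38 and 2.09 for *Cyp26b1*, and 3.94, 5.53 and 4.47 for *Stra6*.

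The tissues also differed in the markers of their cell types, which are given here beside the retinoid genes, with the most abundant marker of each list by mean CPM per kb. Of all genes, 14.5% were called higher and 13.7% lower. Of 8 adipocyte markers, 8 were called lower. Their summed level was 4963, 6446 and 3282 CPM in glands M11035, M11640 and M9232 and 160, 209 and 145 CPM in the tumors, *Fabp4* was the most abundant in both tissues, and *Lep* was at or under the floor in every tumor. Of the squamous markers, all 8 in the table were called higher, with a sum of 7.32, 8.75 and 8.48 CPM in the glands and 2009, 3473 and 2949 CPM in the tumors. *Krt10* was the most abundant of them in both tissues, and *Ivl*, *Lor*, *Sprr1b* and *Sprr3* were at or under the floor in every gland. Of 8 basal and myoepithelial markers, 3 were called higher and 3 lower, with a sum of 375, 692 and 815 CPM in the glands and 1985, 2243 and 2168 CPM in the tumors, led by *Acta2* in the glands and *Krt5* in the tumors. Luminal epithelial markers, led by *Cd24a* in both tissues, had 4 of 7 called higher and 2 lower (536, 584 and 1150 CPM in the glands, 1031, 1217 and 1429 CPM in the tumors). Hormone-sensing luminal markers, led by *Prlr* in the glands and *Areg* in the tumors, had 1 of 6 called higher and 4 lower (326, 463 and 514 CPM in the glands, 139, 75.0 and 53.2 CPM in the tumors). Fibroblast markers, led by *Dcn* in the glands and *Col3a1* in the tumors, had 3 of 6 called, all higher (917, 3616 and 1655 CPM in the glands, 8436, 9059 and 8652 CPM in the tumors).

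T cell and B cell markers had 4 of 4 called lower in both lists, against 13.7% of all genes. The T cell sum, led by *Cd3e* in the glands and *Cd3g* in the tumors, was 239, 91.2 and 147 CPM in the glands and 13.0, 12.3 and 21.3 CPM in the tumors. The B cell sum, led by *Ms4a1* in the glands and *Cd79b* in the tumors, was 344, 138 and 271 CPM against 3.54, 2.23 and 3.15 CPM, with *Cd79a* at or under the floor in every tumor. Macrophage markers, led by *Mrc1* in both tissues, had 0 of 4 called (213, 625 and 750 CPM in the glands, 351, 535 and 554 CPM in the tumors). Dendritic cell markers, led by *Ccr7* in the glands and *Itgax* in the tumors, had 1 of 4 called higher and 3 lower (62.6, 47.2 and 79.1 CPM in the glands, 54.7, 77.3 and 62.8 CPM in the tumors). Endothelial markers, led by *Pecam1* in both tissues, had 2 of 5 called, both lower (346, 461 and 336 CPM in the glands, 194, 242 and 272 CPM in the tumors). Of the mesothelial markers 2 were in the table, 1 called higher and 1 lower (4.27, 1.32 and 1.50 CPM in the glands, 2.61, 3.80 and 2.85 CPM in the tumors), led by *Lrrn4* in the glands and *Wt1* in the tumors, and *Wt1* was at or under the floor in every gland. Skeletal muscle markers, led by *Tnnt3* in both tissues, had 0 of 4 called, with 3549, 1384 and 2.87 CPM in the glands and 12.3, 6.42 and 12.4 CPM in the tumors, and *Ckm* was at or under the floor in every tumor. The muscle markers were thus high in glands M11035 and M11640 and low in gland M9232. The part of these cell types in the differences of the retinoid genes was not tested.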

How the data were processed

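Total RNA of 6 libraries was amplified with the Ovation RNA-Seq System V2 and sequenced in pairs of 76 bases. The authors made the deposited signal, CPM on the effective library size of edgeR 3.6.1, from reads processed with CASAVA 1.8.2, mapped to mm9 with TopHat2 2.0.3 and counted per RefSeq gene with HTSeq 0.5.3p9, and removed genes with fewer than 10 fragments. All 100% of values were whole multiples of the smallest value of their column (tolerance 0.01), which gave fragments per gene (lowest total 11). No column of the deposited table was left out (0 unused).

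The 8 genes and all lists were chosen with earlier results of these data known. Lists covered retinoid uptake and transport, intracellular retinoid binding, retinyl esters, carotenoid cleavage (0 genes in the table), retinol and retinaldehyde dehydrogenation, retinoic acid catabolism, nuclear receptors, retinoic acid-inducible genes, other aldehyde dehydrogenases, and markers of 13 cell types. Named genes were the 8 genes, of each longer list up to 4 called genes with the largest change and the most abundant per kb, any gene of lists of up to 7, the most abundant marker in each tissue and markers at the floor, and the 2 genes nearest in profile to each of the 8. Values of a few genes covered by these rules are not reported here. The list median with genes at 0 in all glands set to their bound is given where it differs.

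limma 3.58.1 in R 4.3.3 was fitted with a trend to log2(CPM + 0.5) of all 15280 genes, without pairing, and called 4309 genes. On recovered fragments, edgeR 4.0.16 (quasi-likelihood) called 2238 higher and 2224 lower, and DESeq2 1.42.0 called 2240 higher and 2196 lower. Tumor and gland with a mouse number came from the same animal. Deviations from the group means, checked over 14712 genes, correlated between M11035 and T11035, M11640 and T11640, and M9232 and T9232 with r = 0.11, 0.15 and 0.017. Alternatives were pseudocounts of 0.1 and 2, at least 1 CPM in at least 3 libraries, the mouse as block, plain totals, edgeR with and without filter, DESeq2, and leaving out each library. The fits were tested on simulated data. Lengths, positions and coding sequences came from GENCODE on mm9, and identities from BLAST 2.17.0. Promoters are from RefSeq (GRCm38.p6), with *Aldh1a3* and *Crabp2* missing, and printed stretches were placed on mm9 by exact match. Python 3.11.15, numpy 2.4.6 and pandas 2.3.3 were used.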

Additional observations from a re-analysis of the deposited data

How the results depend on the processing

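Over 14 alternatives, 111 of 112 values of the 8 genes kept their direction and call, the exception being *Crabp2* without tumor T11640 (log2 fold change 1.84, adjusted p = 0.0507 by limma with Benjamini-Hochberg adjustment, range over its alternatives 1.14e-04 to 0.0507). The 8 genes thus had 6 called higher and 2 lower, or 5 and 2 without that library. *Aldh1a2* kept its call narrowly, with an adjusted p of 0.00157 to 0.0482 over the alternatives (limma, edgeR and DESeq2). For *Aldh1a3* the adjusted p ran from 2.57e-04 to 0.0317 over the same fits. Leaving out each library in turn gave log2 fold changes of -4.06 to -3.78 for *Aldh1a1*, -6.18 to -5.24 for *Aldh1a7*, 1.37 to 2.19 for *Aldh1a2*, 1.12 to 1.66 for *Aldh1a3*, 1.63 to 2.52 for *Crabp2*, 4.40 to 4.86 for *Stra6*, 1.68 to 2.07 for *Dhrs9* and 1.86 to 2.14 for *Cyp26b1*. It gave 12 to 15 pathway genes called higher and 10 to 12 lower, and 1952 to 2237 of all genes called higher and 1822 to 2137 lower. Of 488 values of other pathway genes, 471 kept direction and call, 9 lost a call and 4 gained one, among them *Rdh14*, called lower without gland M9232 (-1.09) or tumor T9232 (-1.02). The remaining 4 changed sign in genes not called in any setting: *Rdh13* at -0.036 and *Adh7* at 0.12 without gland M9232, and -0.011 and 0.064 without tumor T11035, within ranges of -0.036 to 0.16 and -0.62 to 0.12. With the mouse as replicate block, 14 pathway genes were called higher and 11 lower, 2205 of all genes were called higher and 2093 lower, and no call changed among the 8 genes or the pathway genes. *Lrat* and *Cyp26a1* gave no value in filtered edgeR, where they were removed. Plain totals moved the median of all genes to -0.015. The cause of these changes was not tested. Depth limits *Aldh1a7* in the tumors (3 to 10 fragments) and *Stra6* in the glands (2 to 5 fragments).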

Other observations

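Outside the Aldh1a group, 13 aldehyde dehydrogenase genes were in the table, of which 1 was called higher in the tumors, 5 were called lower and 7 were not called (14.5% and 13.7% of all genes were called higher and lower), with a median log2 fold change of -0.27. *Aldh6a1*, which encodes a mitochondrial dehydrogenase of valine breakdown and was the most abundant of them per kb in the glands, had 294, 427 and 275 CPM in glands M11035, M11640 and M9232 and 20.1, 24.0 and 17.4 CPM in the tumors. Its log2 fold change was -3.97 (standard error 0.21, adjusted p = 4.05e-06, limma with Benjamini-Hochberg adjustment), and its exons overlap *2900006K08Rik*, so its fragments are uncertain. *Aldh2*, *Aldh1l1* and *Aldh9a1* had log2 fold changes of -2.54, -2.09 and -2.03. *Aldh1l2*, which encodes a mitochondrial folate enzyme and was chosen after its values were seen as the gene of this family called higher, had 6.71, 8.09 and 13.1 CPM in the glands and 29.0, 29.0 and 26.4 CPM in the tumors (log2 fold change 1.60, adjusted p = 0.00131, limma with Benjamini-Hochberg adjustment). *Aldh3a2* was the most abundant of the family per kb in the tumors (12.3 ± 0.831 CPM per kb, SD, n = 3) and was not called.

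For each of the 8 genes, the genes nearest in profile were found among 14704 genes, as the root mean square difference of centered log2(CPM + 0.5) values over the 6 libraries. Nearest to *Aldh1a1* were *Acsm5* (0.11) and *Aldh6a1* (0.14), and nearest to *Aldh1a7* were *Fasn* (0.33) and *Scd1* (0.39). Nearest to *Aldh1a2* were *B430319G15Rik* (0.24) and *Aff2* (0.25), and nearest to *Aldh1a3* were *Myo1d* (0.096) and *Adamts1* (0.10). *Cryba4* (0.24) and *Cstb* (0.26) lay closest to *Crabp2*, and *Cthrc1* (0.13) to *Stra6*. *P4ha2* (0.087) and *Col5a3* (0.13) lay closest to *Dhrs9*, and *Limk2* (0.10) and *Iffo2* (0.11) to *Cyp26b1*. These differences are descriptions and were not tested.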
